A study of Mus musculus with 24 samples.

Results

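The knockout effect common to 3 cell populations of the embryonic cerebral cortex was read from all 24 libraries of the series, 12 from knockout (KO) and 12 from wild-type (WT) mice. Every library entered 1 additive model in which the population was a covariate and the genotype the effect of interest. A gene was called on 1 genotype effect fitted over all 3 populations, which does not require an effect in each of them. The direction of each gene was then read in every population from a fit of the 6 group means. The populations were cells sorted as PAX6+ (labelled radial glia), TBR2+ (labelled intermediate progenitors) and PAX6-TBR2- (labelled cortical neurons) from E15.5 embryonic cortex, with 4 WT and 4 KO libraries in each. All mice carried Prdm16 flox/flox. The KO mice carried Emx1 Ires-Cre in addition, which expresses Cre recombinase from the Emx1 locus and is active in the dorsal telencephalic progenitors and their descendants. The Cre allele was present in the KO libraries alone, so its effect and that of a changed Prdm16 gene cannot be told apart.

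PRDM16 is a zinc-finger protein of the PR domain family that acts in transcriptional complexes and is expressed in radial glia, the neural stem cells that line the ventricle. Radial glia give rise to intermediate progenitors, which express Tbr2 (Eomes), and both produce the glutamatergic neurons that migrate outwards to the cortical plate. A change that is present in progenitors and still present in their neurons can be looked for by comparing the genotypes along this lineage.

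Levels are given as counts per 1000000 (CPM) scaled over all 24 libraries, and effects as the log2 ratio of KO over WT with its standard error (SE). The libraries held 4948977 to 30027954 counts. Marker genes followed the sort: Pax6 averaged 435 CPM in WT PAX6+, 241.7 CPM in TBR2+ and 30.0 CPM in PAX6-TBR2- libraries, while Eomes averaged 77.7, 931 and 42.1 CPM. The summed level of 17 pan-neuronal genes had WT medians of 518, 8268 and 9997 CPM in the same order. Members differed: Tubb3 averaged 421 CPM in WT TBR2+ and 497 CPM in WT PAX6-TBR2- libraries, and Syt1 7.21 and 107.4 CPM. Whether the sum marks neurons in the TBR2+ libraries was not tested. In whole-population libraries fewer cells of a kind and less RNA per cell cannot be told apart.

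KO replicate 4 stood apart from the other libraries in its sex-linked transcripts. Xist, the RNA that coats the inactive X chromosome of females, was at 19.7, 25.3 and 18.7 CPM in the PAX6+, TBR2+ and PAX6-TBR2- libraries of that number, against 1249 to 5724 CPM in the other 21. Kdm5d, on the Y chromosome, was highest in the same 3 libraries, at 110.8, 93.4 and 101.3 CPM, and was detected in the other 21 as well. The labels call the replicates biological and name no embryo or litter, so libraries of 1 number may share embryos across populations. The p-values treat the 24 libraries as independent and may then be too small.

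**Figure D1:**
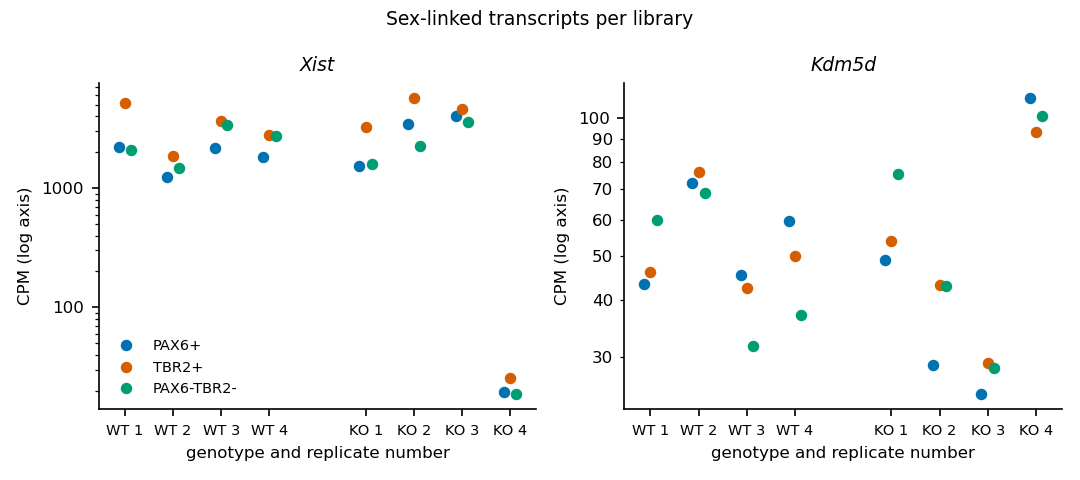
Levels of Xist and Kdm5d (CPM, log axis) by genotype and replicate number, each point 1 library coloured by population. The 3 libraries of KO replicate 4 sit between 18.7 and 25.3 CPM for Xist, below the other 21.

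Prdm16, the targeted gene (chromosome 4, 154316125 to 154636873 in GRCm38), did not pass the test in the additive model. It averaged 253 ± 34.1 CPM in WT and 187 ± 27.2 CPM in KO PAX6+ libraries (SD, n = 4 each). The averages were 55.6 ± 16 against 52.3 ± 7.96 CPM in TBR2+ and 25.3 ± 8.35 against 19 ± 7.47 CPM in PAX6-TBR2- libraries (SD, n = 4 each). KO and WT libraries overlapped in every population, and the additive log2 effect was -0.32 (SE 0.13, edgeR adjusted p = 0.154). Counts cover the whole gene, so a deletion of some exons need not empty it, and the label of the KO libraries could not be checked from this gene. Same-numbered KO libraries were below WT in 4 of 4 pairs of PAX6+ and 4 of 4 of PAX6-TBR2- cells. In TBR2+ cells KO was above WT in replicates 1 and 2 (59.86 and 49.69 against 49.98 and 46.07 CPM). It was below WT there in replicates 3 and 4 (57.43 and 42.32 against 79.48 and 47.03 CPM). The labels name no such pairs. With a replicate block the effect of -0.31 passed (edgeR adjusted p = 0.009107). Emx1, the homeobox gene at whose locus Cre sits, had an additive effect of -0.38 (SE 0.09, edgeR adjusted p = 0.006964), with -0.36, -0.23 and -0.61 in the PAX6+, TBR2+ and PAX6-TBR2- populations. The call of Emx1 was lost without the PAX6-TBR2- libraries (-0.30, edgeR adjusted p = 0.09043) and with a trend in length and GC content removed (-0.25, 0.1017).

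Of 15091 genes tested, 788 were called at an edgeR adjusted p under 0.05 (percent called 5.22), 425 higher in KO (2.82) and 363 lower (2.41). The number of lower genes dropped to 236 without WT PAX6+ replicate 3. Among the 788, 753 had 1 sign in all 3 populations, 401 of them higher and 352 lower, which is 95.6% of the calls and 4.99% of all genes tested. Over all genes, called or not, 40.9% had 1 sign. An effect of 1 model over 3 populations favours genes whose effects share a sign, so this share describes the calls and is no evidence by itself. Without the 3 libraries of KO replicate 4 the calls numbered 669, of which 631 shared a sign.

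The shared effects were mostly small. Only 100 of the 788 genes moved by at least 1 on the log2 scale, and 24 did so in every population with 1 sign. The median effect of the higher genes was 0.52, made of 0.62 in PAX6+, 0.56 in TBR2+ and 0.25 in PAX6-TBR2- cells, so the genes that rose were displaced least in the neuronal population. The median of the lower genes was -0.38, with -0.37, -0.36 and -0.36 in the same order. The median over all genes tested was 0.0072.

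Direction was next read in libraries that had no part in choosing the genes. Genes were named from 2 populations alone and then looked up in the left-out population, where those tested in both fits were counted. Such a fit called 181 genes without the PAX6+ libraries (1.32%), 308 without the TBR2+ libraries (2.04%) and 636 without the PAX6-TBR2- libraries (4.37%). Of 169 genes named without the PAX6+ libraries, 153 had the same direction there (90.5%, against 63.1% of all genes tested), and 59 also passed the test there (34.9%, against 3.04%). Of 263 genes named without the TBR2+ libraries, 241 had the same direction there (91.6%, against 66%), and 55 passed (20.9%, against 1.48%). Of 563 genes named without the PAX6-TBR2- libraries, 478 had the same direction there (84.9%, against 64.6%), and 1 passed. The fit of the PAX6-TBR2- libraries alone called only that 1 gene. The shares of 0.178% of named and 0.00795% of all genes are therefore the same gene and cannot be compared. The median effect in the named direction was 0.36 in both PAX6+ and TBR2+ cells when these were left out and 0.18 in PAX6-TBR2- cells. Libraries of 1 replicate number may share embryos across populations, so the left-out libraries are a separate sort but may not be separate animals.

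**Figure D2:**
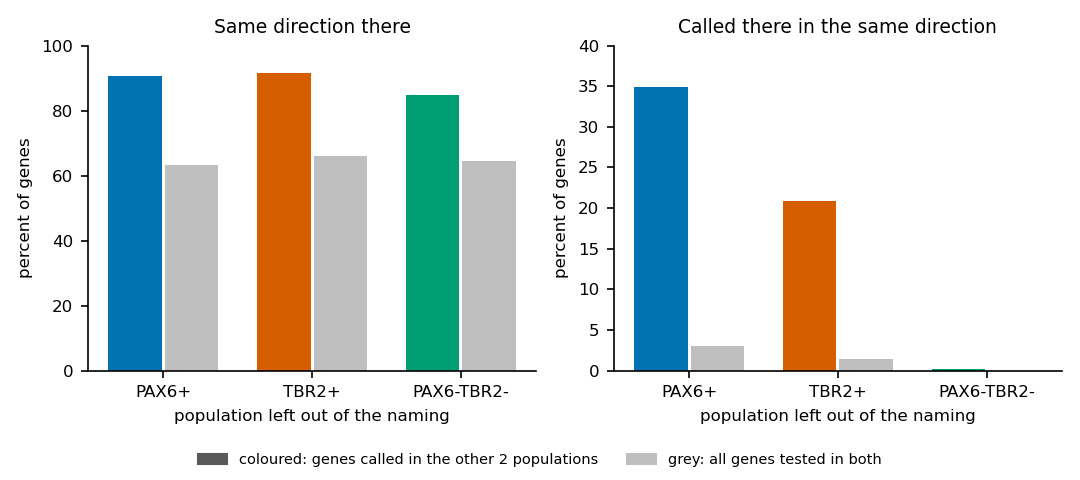
Percent of genes named in the other 2 populations that had the same direction (left) and that were called with it (right) in the left-out population, with all genes tested in grey. The same-direction share was 84.9 to 91.6% for the named genes and 63.1 to 66% for all genes.

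Tested population by population in the fit of 6 means, 528 genes passed in PAX6+ (3.5%), 254 in TBR2+ (1.68%) and 6 in PAX6-TBR2- cells (0.0398%). Single libraries decided much of the TBR2+ count. Without replicate 1 or 3 of WT TBR2+ cells it dropped to 143 or 113, leaving out KO TBR2+ replicate 1 took it to 462, and leaving out KO TBR2+ replicate 3 or 4 gave 157 or 161. Leaving out 1 library at a time, the PAX6-TBR2- count ranged from 1 to 11. The 6 genes, singled out after their values were seen, were Ptx3, Itga6 and Slc44a5, all higher in KO, and Fam210b, Vit and Btbd17, all lower. Of the 788 genes of the additive model, 385 passed in no single population, 317 in 1, 83 in 2 and 3 in all 3. A miss in 1 population does not show that the gene was unaffected there.

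The 3 genes that passed in every population were Ptx3, Itga6 and Fam210b (0.0199% of genes tested). This count was 1 when any of WT replicates 2, 3 or 4 or KO replicates 1, 2 or 4 of the PAX6-TBR2- population was left out, 2 without WT PAX6+ replicate 1, and 0 without all 3 libraries of KO replicate 4.

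Ptx3 encodes the long pentraxin 3, a secreted pattern-recognition protein of innate immunity that binds matrix components (ENSMUSG00000027832, chromosome 3, 66219910 to 66225805, GRCm38). In PAX6+ cells it was at 30.5, 25.8, 41.4 and 35.5 CPM in WT and at 149, 119, 178 and 179.8 CPM in KO replicates 1 to 4. In TBR2+ cells the values were 4.41, 3.59, 8.99 and 5.24 CPM in WT and 63.4, 56.1, 58.4 and 60.2 CPM in KO. Among PAX6-TBR2- cells the level was 1.66, 4.06, 2.76 and 5.04 CPM in WT and 9.31, 11, 14.5 and 17.6 CPM in KO. Every KO library lay above every WT library of its population, while the level of either genotype declined from PAX6+ to PAX6-TBR2- cells. The additive effect was 2.46 (SE 0.18, edgeR adjusted p = 5.377e-10), made of 2.23 in PAX6+, 3.44 in TBR2+ and 1.79 in PAX6-TBR2- cells. Its size differed between populations (interaction adjusted p = 0.03195). Veph1, a gene for a pleckstrin homology domain protein that was described in the ventricular zone, lies across Ptx3 on the opposite strand and was called higher too, with 1.32 in PAX6+, 2.60 in TBR2+ and 1.07 in PAX6-TBR2- cells (additive edgeR adjusted p = 4.013e-07). The strand setting of the counting is not given in the sources used here, so reads of the overlapping stretch may be shared by both genes.

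Itga6 encodes integrin alpha 6, a laminin receptor subunit by which radial glia bind the basement membrane (chromosome 2, 71745616 to 71858416). It was at 93.1, 99.1, 100.3 and 115 CPM in WT and 358, 303, 344 and 389 CPM in KO PAX6+ libraries. The TBR2+ values were 41.8, 48.2, 37.1 and 35.9 CPM in WT and 85.3, 76.9, 77.3 and 79.9 CPM in KO. PAX6-TBR2- libraries had 47.5, 50, 44.2 and 44 CPM in WT and 64.7, 64.9, 65.1 and 84.5 CPM in KO. The genotypes did not overlap in any population, and the WT level was similar in the TBR2+ and PAX6-TBR2- libraries. The effect was 1.77, 0.97 and 0.59 in the 3 populations (additive 1.14, SE 0.11, edgeR adjusted p = 1.994e-07; interaction adjusted p = 7.655e-05).

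Fam210b, which encodes a mitochondrial membrane protein, was the gene that passed everywhere in the lower direction. It was at 291, 215, 269 and 263 CPM in WT and 192, 152, 182 and 204 CPM in KO PAX6+ libraries. The TBR2+ values were 204, 180.2, 229 and 174 CPM in WT and 132, 102, 124 and 113 CPM in KO. In the PAX6-TBR2- population the values were 65.9, 83.5, 73.2 and 93.8 CPM in WT and 43.3, 50.1, 47 and 56.1 CPM in KO. All KO libraries lay below all WT libraries of their population, and the effects of -0.51, -0.74 and -0.69 were of similar size (additive edgeR adjusted p = 1.105e-06).

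In 30 genes (0.199% of those tested) the KO and WT libraries were apart in all 3 populations in 1 direction, 18 higher in KO (0.119%) and 12 lower (0.0795%), and each was called in the additive model. In single populations the libraries were apart for 8.18% of genes in PAX6+, 6.33% in TBR2+ and 3.99% in PAX6-TBR2- cells. The 30 genes include Ptx3, Itga6 and Fam210b. The others named here were chosen after their values were seen. Csmd1, a large membrane protein that regulates complement, had effects of 0.84, 1.17 and 0.57 in PAX6+, TBR2+ and PAX6-TBR2- cells (edgeR adjusted p = 1.994e-07). Plxnc1, a semaphorin receptor, had effects of 0.95, 0.79 and 0.59 (edgeR adjusted p = 5.288e-07). Hsp90ab1, a constitutive cytosolic chaperone, had effects of -0.34, -0.30 and -0.28 (edgeR adjusted p = 6.885e-05). Eef2, the elongation factor that moves the ribosome along the message, had -0.29, -0.35 and -0.30 (edgeR adjusted p = 0.0005664). Ldhb, a subunit of lactate dehydrogenase, had -0.38, -0.46 and -0.34 (edgeR adjusted p = 0.0001162). Nrn1, a membrane-anchored neurite growth factor, had effects of -1.32, -0.55 and -0.50 (edgeR adjusted p = 3.109e-05; interaction adjusted p = 0.08321).

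The 12 higher and 12 lower genes described next were those whose smallest effect over the 3 populations was largest, among called genes with 1 sign and a mean of at least 1 CPM in WT or KO of each population (373 higher and 331 lower genes were eligible). Since this rule used the effects, the values are a description. The plot of effects by population shows all 24.

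**Figure D3:**
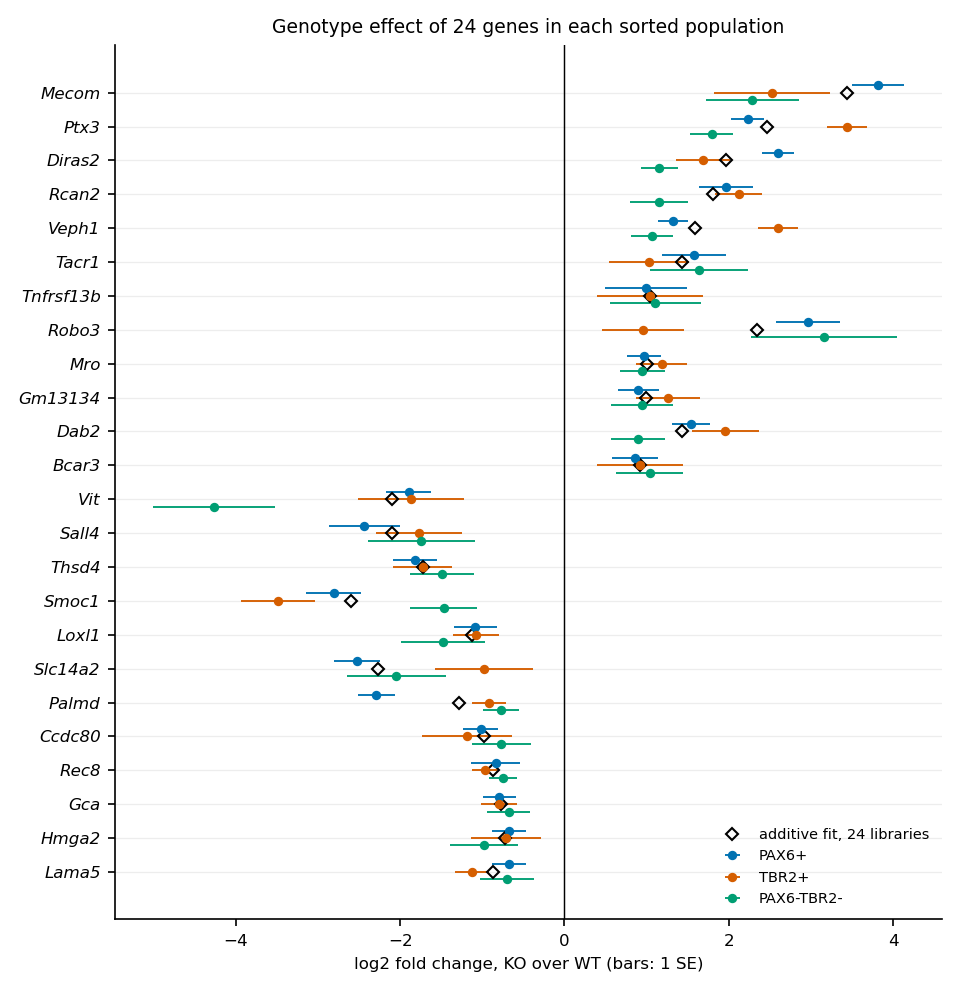
Log2 ratio of KO over WT with 1 SE in PAX6+, TBR2+ and PAX6-TBR2- cells for the 12 higher and 12 lower genes with the largest smallest effect, with the additive estimate as a diamond. All 24 genes keep 1 side of 0 in the 3 populations, and Mecom, Ptx3 and Smoc1 have the additive estimates farthest from 0.

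Mecom led the higher genes. It encodes EVI1 (PRDM3), the PR domain protein closest to PRDM16 (ENSMUSG00000027684, chromosome 3, 29951296 to 30548008, minus strand, GRCm38). It was at 1.67, 1.3, 0.943 and 1.43 CPM in WT and 19.2, 16.6, 21.1 and 18.2 CPM in KO PAX6+ libraries. Among TBR2+ cells the level was 0, 0.163, 0.367 and 0.164 CPM in WT and 1.79, 0.663, 0.948 and 0.629 CPM in KO. The PAX6-TBR2- libraries held 0.207, 0.508, 0.263 and 0.144 CPM in WT and 1.09, 2.29, 0.161 and 1.13 CPM in KO, so that KO replicate 3 overlapped WT there. The effects were 3.82, 2.53 and 2.29, and the additive effect of 3.44 (SE 0.28) had an edgeR adjusted p of 6.161e-09, with most of the reads in PAX6+ cells. An antisense gene, Mecomos, overlaps Mecom. Of the other PRDM family members and partners listed, none of 17 was called in the additive model in edgeR, DESeq2 or limma-voom, and 4 had an unadjusted edgeR p under 0.05. In edgeR with a replicate block Prdm16 and Ehmt2, a histone H3 lysine methyltransferase, were called lower, and with a trend in length and GC content removed Ehmt2 was (-0.15, adjusted p = 0.02414). Mecom was too low to be tested without the PAX6+ libraries.

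Diras2 encodes a small GTPase of the Ras family that is enriched in brain. It was at 7.1, 6.5, 8.11 and 6.01 CPM in WT and 45.9, 31.4, 46.3 and 45.6 CPM in KO PAX6+ libraries. In the TBR2+ population the values were 0.608, 0.653, 1.47 and 1.64 CPM in WT and 2.23, 3.15, 4.17 and 4.56 CPM in KO. Among PAX6-TBR2- cells the level was 4.15, 3.73, 3.81 and 3.53 CPM in WT and 9.94, 6.88, 6.11 and 10.3 CPM in KO. No KO library overlapped WT in any population, and the effect was graded from 2.60 to 1.69 and 1.15 along PAX6+, TBR2+ and PAX6-TBR2- cells (additive edgeR adjusted p = 9.388e-08; interaction adjusted p = 0.02574).

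Rcan2, a regulator of the phosphatase calcineurin, was highest in TBR2+ cells. It was at 1.05, 1.57, 4.65 and 1.53 CPM in WT and 10.1, 7.13, 10.4 and 8.6 CPM in KO PAX6+ libraries. The TBR2+ libraries held 12.6, 14.5, 5.87 and 12.1 CPM in WT and 67, 44.6, 38.7 and 47 CPM in KO. The PAX6-TBR2- values were 2.9, 4.74, 3.15 and 2.34 CPM in WT and 5.59, 5.9, 5.95 and 9.78 CPM in KO. The genotypes were apart in all populations, with effects of 1.97, 2.12 and 1.15 (additive edgeR adjusted p = 5.288e-07). Dab2, a clathrin adaptor that also acts in receptor signalling, had effects of 1.54, 1.96 and 0.90, and its libraries did not overlap either (additive edgeR adjusted p = 8.08e-06).

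Robo3, a divergent receptor of the Robo family that acts in axon crossing, had effects of 2.96, 0.95 and 3.16. Tacr1, the substance P receptor, had 1.58, 1.03 and 1.64, and Bcar3, an adaptor of focal adhesion signalling, 0.86, 0.92 and 1.04. The call of each of these 3 was lost without the PAX6+ libraries, where the additive effect was 1.52 for Robo3 against 2.35 with all libraries, 1.27 against 1.43 for Tacr1 and 0.98 against 0.92 for Bcar3 (edgeR adjusted p = 0.1328, 0.1166 and 0.1712). Mro, a nucleolar protein gene, had effects of 0.97, 1.18 and 0.95 (edgeR adjusted p = 4.211e-05). Gm13134, a transcript annotated on the opposite strand within Prdm16, had effects of 0.90, 1.26 and 0.94 (additive edgeR adjusted p = 0.0008614). Without the PAX6+ libraries its additive effect was 1.09 against 0.99 with all, at an adjusted p of 0.08043, and its reads cannot be told apart from those of Prdm16 without strand. Tnfrsf13b, a receptor of B-cell survival factors, was at most 2.76 CPM in every library. Its additive edgeR adjusted p of 0.04668 was over 0.05 in 18 of the 24 fits that left out 1 library, with 0.1173 without KO PAX6+ replicate 2 as the highest.

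Among the lower genes Vit had the largest smallest effect. It encodes vitrin, an extracellular matrix protein with von Willebrand factor A domains (ENSMUSG00000024076, chromosome 17, 78508064 to 78627408, GRCm38). It was at 23.9, 17, 33.5 and 24.8 CPM in WT and 7.76, 5.37, 6.07 and 7.49 CPM in KO PAX6+ libraries. Among TBR2+ cells the level was 1.82, 0.653, 1.65 and 0.819 CPM in WT and 0.149, 0.331, 0.19 and 0.629 CPM in KO. PAX6-TBR2- libraries had 0.415, 1.02, 1.58 and 2.56 CPM in WT, while 3 of 4 KO libraries held no count and KO replicate 2 was at 0.328 CPM. The genotypes were apart in every population. The additive effect was -2.10 (SE 0.25, edgeR adjusted p = 3.234e-06). In the PAX6-TBR2- libraries 91 WT counts stood against 2 KO counts, a rate ratio of WT over KO of 25.8 (exact 95% interval 6.93 to 216, counting error only). WT replicate 4 held most of these counts, and without it 20 WT counts gave a ratio of 14.3 (3.47 to 126).

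Thsd4 encodes a thrombospondin-repeat protein that associates with fibrillin microfibrils (ENSMUSG00000032289, chromosome 9, 59966931 to 60522046, minus strand, GRCm38). It was at 74, 54, 80.8 and 61.1 CPM in WT and 23.2, 19.2, 18.3 and 16.1 CPM in KO PAX6+ libraries. In the TBR2+ population the values were 20.7, 8.49, 11 and 6.72 CPM in WT and 5.21, 4.14, 2.84 and 1.89 CPM in KO. In the PAX6-TBR2- population the values were 1.45, 7.28, 5.12 and 8.75 CPM in WT and 1.71, 2.13, 2.09 and 2.76 CPM in KO. WT replicate 1 of the PAX6-TBR2- population was the single WT library within the KO range. The effects of -1.81, -1.73 and -1.49 were close to each other (additive -1.72, SE 0.19, edgeR adjusted p = 5.288e-07).

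Smoc1, a secreted calcium-binding matricellular protein that modulates BMP signalling, had effects of -2.81, -3.49 and -1.47 (additive edgeR adjusted p = 1.994e-07). Palmd, which encodes palmdelphin, a cytosolic relative of paralemmin, averaged 30.8 ± 7.6 CPM in WT and 6.28 ± 2.06 CPM in KO PAX6+ libraries (SD, n = 4 each). It averaged 82.5 ± 11.2 against 43.7 ± 6.07 CPM in TBR2+ and 30.7 ± 8.59 against 18.2 ± 5.2 CPM in PAX6-TBR2- libraries (SD, n = 4 each). Its KO and WT libraries were apart in all populations, and the effect was largest in PAX6+ cells, at -2.29 against -0.92 and -0.78 (interaction adjusted p = 0.01299). Sall4, a zinc-finger factor of pluripotent and early progenitor cells, had effects of -2.44, -1.77 and -1.74 at levels of at most 7.71 CPM (additive edgeR adjusted p = 4.467e-05). Slc14a2, a urea transporter, had effects of -2.53, -0.98 and -2.05 (additive edgeR adjusted p = 1.105e-06).

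Rec8, a cohesin subunit best known from meiosis, was most abundant in TBR2+ cells. It was at 34, 36.8, 31.4 and 43.6 CPM in WT and 22.2, 14.6, 18.4 and 19 CPM in KO TBR2+ libraries. The PAX6-TBR2- libraries held 15.3, 13.4, 13 and 11.3 CPM in WT and 6.83, 7.7, 9.33 and 7.39 CPM in KO. In PAX6+ cells it was at 1.23, 0.685, 1.26 and 0.916 CPM in WT and 0.517, 0.613, 0.703 and 0.426 CPM in KO, where KO replicate 3 reached the lowest WT library. The effects were -0.84, -0.97 and -0.75 along PAX6+, TBR2+ and PAX6-TBR2- cells (additive edgeR adjusted p = 3.675e-06).

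Lama5, the laminin alpha 5 chain of basement membranes, had effects of -0.67, -1.13 and -0.70 (additive edgeR adjusted p = 0.0001731). Loxl1, an enzyme that cross-links elastin, had effects of -1.08, -1.08 and -1.48 (additive edgeR adjusted p = 0.0001587). Ccdc80, a secreted matrix-associated protein, had -1.02, -1.19 and -0.77, Gca, a calcium-binding protein of the penta-EF-hand family, -0.79, -0.80 and -0.68, and Hmga2, a chromatin architectural protein of neural stem cells, -0.68, -0.71 and -0.98. Ccdc80, Gca and Hmga2 were called in the additive model and lost the call without the PAX6+ libraries, with effects there of -0.89, -0.74 and -0.85 beside -0.98, -0.77 and -0.73 with all libraries (edgeR adjusted p = 0.1943, 0.05114 and 0.2193). Gca and Hmga2 overlap genes on the opposite strand.

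**Figure D4:**
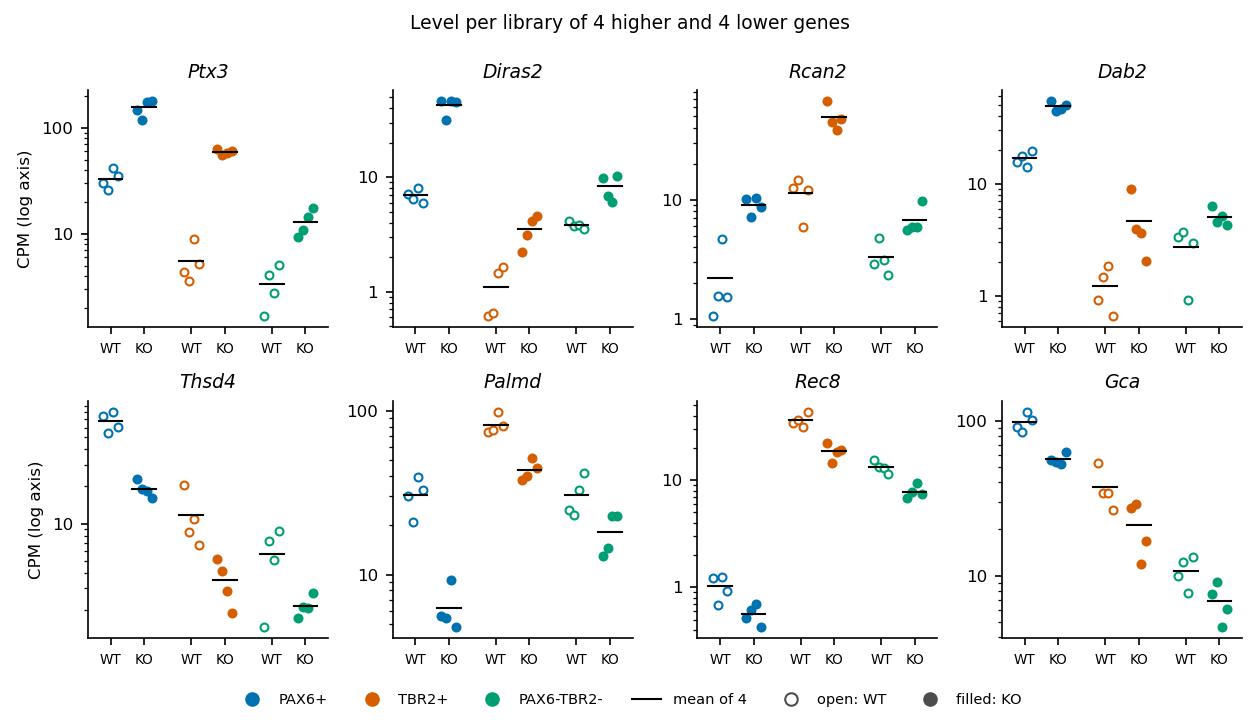
Level of Ptx3, Diras2, Rcan2, Dab2, Thsd4, Palmd, Rec8 and Gca (CPM, log axis) in each library, WT as open and KO as filled points, with a line at the group mean. KO and WT points separate in all 3 populations for Ptx3, Diras2, Rcan2, Dab2 and Palmd, and overlap in at least 1 population for Thsd4, Rec8 and Gca.

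Promoters of 4 of these genes are shown because their transcripts shifted in 1 direction in all populations, Mecom and Ptx3 upwards and Thsd4 and Rec8 downwards. Each window runs 5′ to 3′ on the strand of the gene from 250 bases before to 50 bases after the RefSeq start (GRCm38.p6), and capitals mark a match to a searched motif. The windows lie at chr3:30509710-30510009 (Mecom, minus strand, the first of 2 RefSeq entries), chr3:66219637-66219936 (Ptx3, plus strand), chr9:60510986-60511285 (Thsd4, minus strand, the first of 2 entries) and chr14:55617916-55618215 (Rec8, plus strand).
Mecom: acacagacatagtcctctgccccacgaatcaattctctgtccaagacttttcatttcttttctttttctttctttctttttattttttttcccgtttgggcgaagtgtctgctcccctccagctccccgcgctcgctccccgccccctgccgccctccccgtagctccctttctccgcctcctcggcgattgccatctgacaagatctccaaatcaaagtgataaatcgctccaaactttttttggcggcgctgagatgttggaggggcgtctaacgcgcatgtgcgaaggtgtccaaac
Ptx3: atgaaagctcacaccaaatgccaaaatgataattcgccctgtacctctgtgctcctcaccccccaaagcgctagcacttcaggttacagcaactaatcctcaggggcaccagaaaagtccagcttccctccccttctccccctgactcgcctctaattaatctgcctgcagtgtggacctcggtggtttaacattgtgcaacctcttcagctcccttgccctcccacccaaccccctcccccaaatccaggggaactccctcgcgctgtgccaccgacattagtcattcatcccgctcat
Thsd4: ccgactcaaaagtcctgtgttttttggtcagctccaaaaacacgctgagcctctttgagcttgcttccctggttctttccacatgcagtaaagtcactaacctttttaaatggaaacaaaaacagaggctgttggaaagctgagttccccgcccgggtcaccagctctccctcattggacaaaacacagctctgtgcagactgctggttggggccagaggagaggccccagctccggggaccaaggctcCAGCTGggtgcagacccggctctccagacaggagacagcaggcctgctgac
Rec8: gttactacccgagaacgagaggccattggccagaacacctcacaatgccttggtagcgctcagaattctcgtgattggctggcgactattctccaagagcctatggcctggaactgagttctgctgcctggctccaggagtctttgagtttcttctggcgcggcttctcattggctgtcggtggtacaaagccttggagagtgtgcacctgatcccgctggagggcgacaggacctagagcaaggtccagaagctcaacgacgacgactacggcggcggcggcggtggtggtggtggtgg

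The motifs searched on both strands were AAGATAA, which is part of the sequence bound by the first zinc-finger domain that PRDM16 shares with EVI1, and CAGCTG, an E-box that is its own reverse complement. Of the 24 genes, 15 had a promoter entry. None held AAGATAA and 3 held CAGCTG (20%), Thsd4 among them. Of the 753 genes with a shared direction, 553 had an entry, of which 6 held AAGATAA (1.08%) and 80 held CAGCTG (14.5%). Over all 27025 promoters of this length the shares were 3.61% and 16.1%. These promoters were not limited to the genes tested, so the shares come from unlike sets, and their difference was not tested. A match to these letters is a description and no site of binding.

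The size of the effect was not the same along the lineage for every gene. The test of equal effects in the 3 populations called 123 genes (0.815%), 59 of them also called in the additive model. Among the additive calls 35 did not share a sign, and the 6 of these with the smallest interaction p were examined. Ddhd1, a phospholipase of phosphatidic acid, averaged 49.2 ± 3.16 CPM in WT and 110.5 ± 3.7 CPM in KO PAX6+ libraries (SD, n = 4 each), with effects of 1.17, -0.03 and 0.11 (interaction adjusted p = 2.256e-06). Prokr2, the prokineticin receptor, had effects of 2.71 in PAX6+ and 1.46 in TBR2+ but -0.60 in PAX6-TBR2- cells, with non-overlapping libraries in each (interaction adjusted p = 6.631e-06). Pbx3, a homeodomain cofactor, had effects of -0.40, -2.15 and 0.04 (interaction adjusted p = 0.0004194). Syn2, a synaptic vesicle protein, had effects of 1.69, -0.05 and 0.44, and Gfra1, the GDNF receptor subunit, 1.91, -0.0037 and 0.04. Fzd7, a Wnt receptor, had effects of 0.78, 0.21 and -0.03. The additive calls of Ddhd1, Prokr2, Syn2 and Gfra1 were lost without single WT PAX6+ libraries (any of the 4 for Ddhd1, Syn2 and Gfra1, replicates 1, 2 or 3 for Prokr2) and for Syn2 also without KO PAX6+ replicates 1 or 4, with edgeR adjusted p between 0.05001 and 0.06768. For these genes the additive estimate averages unlike effects.

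Ribosomal protein genes, which encode the protein part of the translation machinery, had 7 of 20 called lower and none higher, where 2.41% of all genes were called lower. Their median effect was -0.24 beside 0.0072 over all genes, and 18 of 20 had 1 sign in the 3 populations, as did 40.9% of all genes. Rps3 averaged 208 ± 23 CPM in WT and 169 ± 9.74 CPM in KO PAX6+ libraries, 219.8 ± 23.8 against 191 ± 15.7 CPM in TBR2+ and 149 ± 6.59 against 122 ± 11.7 CPM in PAX6-TBR2- libraries (SD, n = 4 each). Its effects were -0.30, -0.20 and -0.28 (additive edgeR adjusted p = 0.004106). Rps9 and Rpl8 had additive effects of -0.30 and -0.36. These genes have short transcripts, and calls moved with length: the median longest transcript was 4772 bases among higher and 2501 bases among lower genes, against 3260 bases over all genes tested. With a trend in length and GC content removed from each library, an alternative added after this was seen, 3 of the 20 were called lower, with a median of -0.20. The number called lower was 1 without the PAX6+, 3 without the TBR2+ and 2 without the PAX6-TBR2- libraries. Cell cycle genes had a median of -0.27, with 15 of 21 sharing a sign, 1 call lower (Top2a, the mitotic topoisomerase) and none higher. Of the 20 not called, 9 had an unadjusted edgeR p under 0.05. DESeq2 called 3 cell cycle genes lower, limma-voom 2 and edgeR with a replicate block 7. Without the PAX6+, the TBR2+ or the PAX6-TBR2- libraries 0 were called. The additive edgeR adjusted p of Top2a, 0.04872, was over 0.05 in 17 of the 24 fits that left out 1 library, up to 0.09493 without WT PAX6-TBR2- replicate 4. Nuclear genes of oxidative phosphorylation had 1 of 20 called lower (Ndufa4, -0.31) and a median of -0.15. Of the 19 not called, 10 had an unadjusted edgeR p under 0.05. DESeq2, limma-voom and edgeR with a replicate block each called 3 of the list lower. Leaving out any 1 population left 0 called. None of the 8 mitochondrially encoded genes tested was called in edgeR, DESeq2 or limma-voom, and 0 had an unadjusted edgeR p under 0.05.

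**Figure D5:**
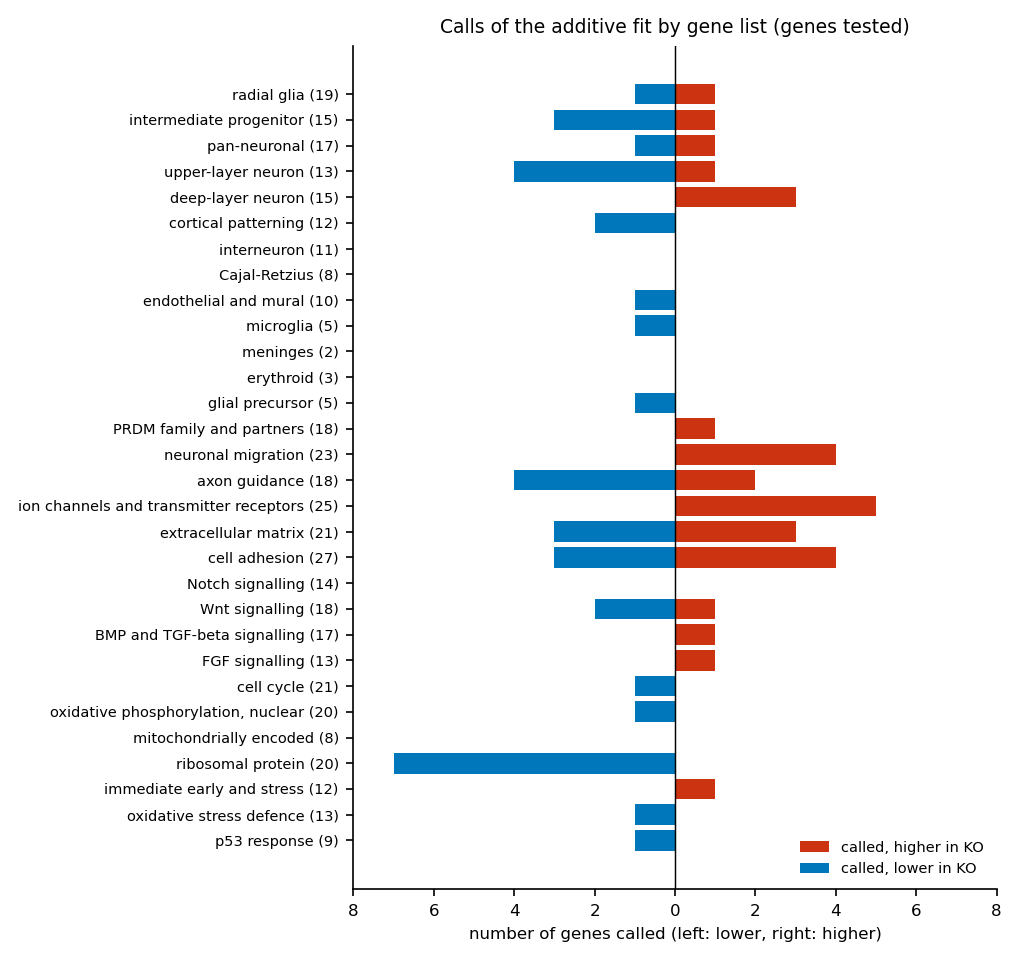
Number of genes called higher (right) and lower (left) in KO in the additive model for each gene list, with the number tested in brackets, some genes being in more than 1 list. Ribosomal protein genes have 7 lower calls and ion channels and transmitter receptors 5 higher calls.

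Ion channel and transmitter receptor genes had 5 of 25 called higher (2.82% over all genes) and none lower, with a median of 0.27. The number was 3 without the PAX6+ libraries and 3 with the filter on low counts applied within each population. They were 4 subunits of the GABA-A receptor, the chloride channel gated by the transmitter GABA (Gabrg1, Gabra2, Gabrb1 and Gabra4), and Gria4, an AMPA-type glutamate receptor subunit. The median of the whole list was -0.04 in PAX6+, 0.81 in TBR2+ and 0.20 in PAX6-TBR2- cells. Only 9 of the 25 genes had 1 sign in the 3 populations, as did 40.9% of all genes. Gabrg1 had effects of 3.97, 2.12 and 1.29 (additive edgeR adjusted p = 4.013e-07) and averaged 0.985 ± 0.527 CPM in WT and 15.1 ± 5.8 CPM in KO PAX6+ libraries (SD, n = 4 each). Gabra2 was at 2.19, 7.12, 2.64 and 4.07 CPM in WT and 67.3, 79.3, 72.1 and 84.6 CPM in KO PAX6+ libraries. The TBR2+ libraries held 14.3, 11, 11.4 and 19.5 CPM in WT and 41.2, 41.9, 55.3 and 51.1 CPM in KO. Among PAX6-TBR2- cells the level was 21.6, 21.7, 27.7 and 22 CPM in WT and 45.2, 33.9, 32.3 and 38.5 CPM in KO. KO libraries were above WT in every population for both genes, and for Gabra2 the WT level was higher in each later population while the effect went from 4.22 to 1.75 and 0.69 (interaction adjusted p = 4.023e-07). Gabrb1 and Gabra4 overlap each other on opposite strands. Gabrb1 lost its call without the PAX6+ libraries (0.60, edgeR adjusted p = 0.3071), and Gabra4 (0.58, adjusted p = 0.04559) lost it in 15 of 24 fits without 1 library, up to 0.1459 without KO PAX6+ replicate 4. Summed interneuron markers, genes of cells that use GABA, were at 82.3 to 123 CPM in WT and 90.2 to 112 CPM in KO PAX6+ libraries, and at 417 to 1141 against 557 to 1331 CPM in PAX6-TBR2- libraries. None of the 11 interneuron genes tested was called in edgeR or limma-voom, 1 had an unadjusted edgeR p under 0.05, and DESeq2 called Npy, which encodes neuropeptide Y.

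Genes of the cortical neuron layers had calls in the higher direction for deep layers and mostly in the lower direction for upper layers in the additive model. Of 15 deep-layer genes 3 were called higher and none lower, with a median of 0.27, where 2.82% of all genes were called higher. Foxp2, a forkhead factor of the list, missed the call (-0.51, edgeR adjusted p = 0.05068) and was called lower in DESeq2, in limma-voom, with a replicate block and with the length and GC trend removed. DESeq2 also called Nr4a2, an orphan nuclear receptor, higher. The 3 called higher in the additive model were Lmo3, Sox5 and Fezf2. Lmo3, an LIM-domain cofactor, had effects of 0.51, 1.38 and 0.41 (additive edgeR adjusted p = 0.001969). Sox5 (0.22, 0.80 and 0.27) is a factor of subcortical projection neurons, and Fezf2 (0.18, 0.72 and 0.19) a determinant of their identity. The call of Fezf2 was lost without WT TBR2+ replicates 1, 2 or 3, KO TBR2+ replicates 2 or 4, or KO PAX6-TBR2- replicates 1 or 2, with edgeR adjusted p of at most 0.05693. Of 13 upper-layer genes 4 were called lower and 1 higher, with a median of -0.27, where 2.41% of all genes were called lower. Unc5d, a netrin receptor of multipolar and upper-layer cells, was apart in all 3 populations, with effects of -1.27, -0.55 and -0.70 (additive edgeR adjusted p = 0.0001162). Pou3f1 and Pou3f2, POU-domain factors of upper-layer neurons, had effects of -1.10, -1.53 and -0.63 and of -0.29, -0.83 and -0.70 (additive edgeR adjusted p = 0.0006689 and 0.001431). Lhx2, a LIM-homeodomain factor of cortical progenitors that is on the patterning list too, had an additive effect of -0.29, and its call was lost without WT TBR2+ replicate 4 (edgeR adjusted p = 0.05163) or WT PAX6-TBR2- replicate 4 (0.05053). Mdga1, an adhesion molecule of upper-layer neurons, went the other way, with 0.85, 0.52 and 0.11 (additive edgeR adjusted p = 0.006766). Whether the lists differed from each other was not tested. Without the TBR2+ libraries the deep-layer calls numbered 1 and the upper-layer lower calls 2.

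Lists of the sorted identities themselves held calls in both directions, where 5.22% of all genes were called. Of 19 radial glia genes Slc1a3, the glutamate transporter GLAST, was called higher (0.46) and Mfge8, a secreted milk-fat globule protein, lower (-0.98), with a median of 0.09. Of the 17 not called, 6 had an unadjusted edgeR p under 0.05. Of the list, limma-voom called 2 genes higher and 2 lower, and edgeR with a replicate block 7 higher and 2 lower. Slc1a3 averaged 322 ± 35.4 against 432 ± 60.1 CPM in WT and KO PAX6+ libraries (SD, n = 4 each). Of 15 intermediate progenitor genes 3 were called lower, Rhbdl3 (-0.47), Insm1 (-0.41), a zinc-finger factor that promotes intermediate progenitors, and Kif26b (-0.64), and 1 higher, Sorbs2 (0.44), an actin-associated adaptor. The list median was -0.33. Of the 11 not called, 4 had an unadjusted edgeR p under 0.05. Of this list, limma-voom called 1 gene higher and 4 lower, and edgeR with a replicate block 1 higher and 6 lower. Kif26b did not share a sign, with 0.29 in PAX6+ against -0.95 and -0.998 in the other cells. Of 17 pan-neuronal genes Syt1, a calcium sensor of vesicle release, was called higher (0.80) and Tubb3, neuronal tubulin, lower (-0.39). Pax6 (-0.08, edgeR adjusted p = 0.7878) and Eomes (-0.45, edgeR adjusted p = 0.09745), whose proteins defined the sort, did not pass. Eomes passed with a replicate block (edgeR adjusted p = 0.008666), with no filter on low counts (0.02857), without WT PAX6-TBR2- replicate 1 (0.04259) or 3 (0.04219), and with means over populations (0.04063).

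Matrix and adhesion genes were split between directions, where 5.22% of all genes were called. Of 21 extracellular matrix genes Itga6, Lama1 and Vcan were called higher and Smoc1, Col12a1 and Col22a1 lower, with a median of -0.05. Lama1, the laminin alpha 1 chain, had effects of 1.37, 1.55 and 0.49 with no overlap between genotypes (additive edgeR adjusted p = 3.873e-06), opposite to Lama5. Col12a1, a fibril-associated collagen, had effects of -2.70, -0.22 and -1.69 (additive edgeR adjusted p = 5.666e-05, 0.1419 without the PAX6+ libraries). Of 27 cell adhesion genes 4 were called higher (Pcdh10, Sdk2, Flrt3 and Pcdh17) and 3 lower (Cdh4, Dscaml1 and Pcdh8). With the length and GC trend removed these counts were 1 and 4, without the PAX6+ libraries 1 and 1, and without the TBR2+ libraries 0 and 2. In the 3 populations 10 of the 27 had 1 sign, as did 40.9% of all genes. The call of Pcdh8 was lost in 13 of 24 fits without 1 library, up to an edgeR adjusted p of 0.08221 without KO PAX6+ replicate 2. Dscaml1, a homophilic adhesion molecule, had effects of -2.24, -1.95 and -0.09 (interaction adjusted p = 0.0005073).

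Axon guidance and migration genes followed, where 5.22% of all genes were called. Of 18 guidance genes 2 were called higher (Robo3 and Sema6d) and 4 lower (Unc5d, Epha7, Robo2 and Sema3a), with a median of 0.06. Robo2, a receptor for Slit proteins, averaged 661 ± 34.7 CPM in WT and 415 ± 55.9 CPM in KO TBR2+ libraries and 694 ± 144 against 501.5 ± 84.2 CPM in PAX6-TBR2- libraries (SD, n = 4 each), with an additive effect of -0.50 (edgeR adjusted p = 0.001447). Of 23 migration genes 4 were called higher (Pdzrn3, Filip1, Mdga1 and Rnd3) and none lower, with a median of 0.06, beside 2.82% called higher over all genes. In the 3 populations 8 of the 23 had 1 sign, as did 40.9% of all genes. Without the PAX6+ libraries 1 was called higher, and without the TBR2+ libraries 1 was called higher and 1 lower. Pdzrn3, a ubiquitin ligase with PDZ domains, averaged 26.9 ± 5.31 against 140.9 ± 16.1 CPM in PAX6+ and 96.9 ± 13.2 against 409.6 ± 35.2 CPM in TBR2+ libraries of WT and KO (SD, n = 4 each). In PAX6-TBR2- cells it averaged 238 ± 59.8 and 240.8 ± 70.6 CPM, so the effects were 2.38, 2.08 and 0.01 (interaction adjusted p = 2.256e-06).

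Calls in the signalling lists numbered from 0 to 3, where 5.22% of all genes were called. A single call in a list of 13 or 17 genes is near that share. No Notch pathway gene of 14 was called in the additive model, where 2 had an unadjusted edgeR p under 0.05. DESeq2 called 1 of them (Jag1, a Notch ligand) and limma-voom called 2 (Jag1 and Mfng, a Fringe that modifies Notch). Of 18 Wnt genes Daam2, a formin of Wnt signalling, was called higher (0.75, 2.41 and 0.82) and the Wnt receptors Fzd8 and Fzd5 lower (additive -0.50 and -0.78). The call of Fzd5 was lost in 8 of 24 fits without 1 library, with 0.07466 without WT PAX6+ replicate 3 as the highest edgeR adjusted p. Acvr2a, an activin receptor, was the single call of 17 BMP and TGF-beta genes (0.39), and Fgf15, an FGF ligand, of 13 FGF genes (2.29, nearly all of its counts in PAX6+ libraries). Fosl2, an AP-1 subunit, was the single call of 12 immediate early genes, with effects of 1.74, 2.42 and 0.14 (interaction adjusted p = 0.0002642). Sod1, superoxide dismutase, of 13 oxidative stress genes and Bax, a mediator of apoptosis, of 9 p53 response genes were called lower (-0.34 and -0.44). Sod1 lost its call without the PAX6+ (edgeR adjusted p = 0.05344) or TBR2+ libraries (0.07231), and Bax without the TBR2+ (0.1064) or PAX6-TBR2- libraries (0.06048) and with the length and GC trend removed (0.07844).

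Markers of cells other than those sorted were low in most libraries. Summed microglial genes reached at most 13.3 CPM, choroid plexus genes 2.13 CPM, meningeal genes 4.82 CPM and erythroid genes 36.3 CPM. Endothelial and mural genes summed to 16.5 to 48.5 CPM in WT and 8 to 35.6 CPM in KO PAX6+ libraries. Slco1c1, a transporter of brain endothelium, was the single call of the 10 tested (lower, -1.76). The list median was -0.14, and 5.22% of all genes were called. C1qb, a complement gene at no count in any PAX6+ library, was the single call of 5 microglial genes tested (lower, -1.58). The list median was -0.02, with 0.79 in PAX6+, 0.52 in TBR2+ and -0.30 in PAX6-TBR2- cells. The call of C1qb was lost in 5 fits without 1 library, up to an edgeR adjusted p of 0.09587 without KO PAX6-TBR2- replicate 1. Aqp4, the astroglial water channel, was the single call of 5 glial precursor genes tested (lower, -1.28), with a list median of -1.16. Aqp4 lost the call in 8 such fits, up to 0.08177 without KO PAX6+ replicate 2. Cajal-Retzius genes summed to 148 to 567 CPM in WT and 406 to 603 CPM in KO TBR2+ libraries, with 0 of 8 called in edgeR, DESeq2 or limma-voom and 0 at an unadjusted edgeR p under 0.05. The part of these cells in the effects above was not tested.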

How the data were processed

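RNA of sorted cells was amplified by single primer isothermal amplification and sequenced, per the labels' protocols. They name no molecular identifiers, so intervals cover counting error only. The authors deposited raw counts per Ensembl gene and lane, and, as a signal, counts divided by a size factor per library. FastQC, cutadapt, STAR, featureCounts, DESeq2 and the mm10 build are named per the submitters' processing notes. For versions, annotation release and strand setting: not given in the sources used here. Libraries of PAX6+ cells are in a table of their own, apart from the other populations, and each population has its own library prefix in the column names, so population and library batch cannot be told apart, while genotypes were compared within each.

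Tables were joined on gene ID and the 2 lanes of each library summed. Of 39017 genes 37693 were named with GENCODE M21, and rows without a match kept their ID. Genes passing filterByExpr on the 6 groups (15091) were scaled by TMM and fitted in edgeR 4.0.16 (R 4.3.3), quasi-likelihood, two-sided, with Benjamini-Hochberg adjustment over all genes and calls at an adjusted p under 0.05. The additive model had terms for population and genotype. Effects per population and the interaction came from a fit of 6 group means with 1 spread. CPM values are counts per 1000000 of TMM-scaled library size. DESeq2 1.42.0 and limma 3.58.1 were alternatives. Precision follows the depth of 4948977 to 30027954 counts per library. On simulated data for the additive model over 15091 genes, 84% of genes changed by 1 (log2) in all populations and 92% of those changed by 2 were recovered, and 0.054% of unchanged genes were called. Of genes changed by 1 or by 2 in TBR2+ cells alone, 7% were called. The simulated libraries were independent, so these shares do not cover embryos shared between libraries.

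Whole reads were recovered from 100% of the deposited normalized values (tolerance 1e-06). They equalled the raw counts in PAX6+ libraries and were 1.44 to 1.70 times the raw counts per group elsewhere, and the additive model on them called 783 genes. The raw counts were used.

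The 12 higher and 12 lower genes followed the rule given with them. Beside these, 6 called genes without a shared sign, Prdm16, Mecom, Emx1, Pax6 and Eomes, and called members of each list were named, except 1 gene that is not reported here. The members, lists and comparisons were chosen with earlier results of these data known. No set test was run. Removing the length and GC trend, taking means over populations (4 against 4) and leaving out all libraries of 1 genotype and number were alternatives added after seeing the data.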

Additional observations from a re-analysis of the deposited data

Results flagged for a closer look

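In 13 of 168 groups of 4 libraries 1 library lay far from the other 3, where chance picks out about 5% of groups. Diras2 was at 31.4 CPM in KO PAX6+ replicate 2, against 45.6 to 46.3 CPM in the other 3. Rcan2 was at 4.65 CPM in WT PAX6+ replicate 3 and at 9.78 CPM in KO PAX6-TBR2- replicate 4, both above their groups. Tacr1 was at 3.04 CPM in WT TBR2+ replicate 1 and Robo3 at 0.677 CPM in WT PAX6-TBR2- replicate 2, both higher than the rest. Mro was at 3.11 CPM in WT PAX6-TBR2- replicate 1 and at 17 CPM in KO PAX6+ replicate 4. Vit was at 0.328 CPM in KO PAX6-TBR2- replicate 2, the other 3 holding no count. Sall4 was at 2.45 CPM in KO PAX6+ replicate 2, Loxl1 at 15.2 CPM in KO PAX6+ replicate 1 and Hmga2 at 2.23 CPM in KO TBR2+ replicate 1, so that these 3 lower genes each had 1 KO library nearer to WT. Prdm16 was at 79.5 CPM in WT TBR2+ replicate 3, above 46.1 to 50 CPM in the others, and Emx1 at 11.5 CPM in KO PAX6+ replicate 4, below 18.5 to 19.6 CPM. Leaving out any of these libraries ended none of the additive calls of Diras2, Rcan2, Tacr1, Robo3, Mro, Vit, Sall4, Loxl1, Hmga2 or Emx1.

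Effects that differed in size between populations were tested with the interaction in edgeR (adjusted p). Among the genes with the largest shared effects these were Ptx3 (0.03195), Diras2 (0.02574), Veph1 (0.03723) and Palmd (0.01299). The genes without a shared sign were Ddhd1 (2.256e-06), Prokr2 (6.631e-06), Syn2 (0.0002069), Pbx3 (0.0004194), Gfra1 (0.001383) and Fzd7 (0.006877). Among list members they were Gabra2 (4.023e-07), Pdzrn3 (2.256e-06), Itga6 (7.655e-05), Fosl2 (0.0002642), Dscaml1 (0.0005073), Col12a1 (0.001789), Daam2 (0.01067), Kif26b (0.02324) and Sorbs2 (0.0274).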

How the results depend on the processing

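The number of genes called in the additive model (788) stayed within 1.5 times of that value under another scaling (789), DESeq2 (1050), limma-voom (1002), recovered reads (783) and the length and GC trend removed (721, of which 561 were among the 788 and 49.4% were higher against 53.9%). Same-numbered WT and KO libraries deviated together in 9 of 12 pairs (correlation over 0.1, range 0.047 to 0.436) and 21 of 24 libraries correlated best with their own number, which falls short of the rule for pairing over all populations. Within PAX6+ cells 4 of 4 pairs (0.186 to 0.436) and 8 of 8 libraries met it, and the block took the PAX6+ calls from 528 to 1034. With a replicate block the additive calls were 1373, those of 1 sign 1298, those called in all 3 populations 27 and those of the interaction 541. Prdm16 passed with the block (-0.31, adjusted p = 0.009107), and the block gave 112 list members called against 64. Without the PAX6+ libraries 181 genes were called (181 of 1 sign, 7 in the interaction, 26 list members), and without the TBR2+ libraries 308 (306 of 1 sign, 37 list members). The sign was read there in the remaining populations only. Of the 788 genes, 163 (20.7%) were called without the PAX6+ and 279 (35.4%) without the TBR2+ libraries, while 44 and 7 could not be tested. Without all libraries of WT number 3, WT number 4 or KO number 2 the calls were 492, 478 and 418, and those of 1 sign 474, 452 and 402. Without WT number 3, KO number 2 or KO number 3 the interaction had 71, 81 and 67 calls. The cause was not tested beyond the fewer libraries.

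The 3 genes called in all populations became 9 with DESeq2, 10 with no filter on low counts, 5 with the trend removed, 1 without all libraries of WT number 2 or 4 or KO number 1, 2 or 3, and 0 without KO number 4. The interaction (123) had 227 calls with DESeq2 and 305 with no filter. Leaving out 1 library gave 541 to 836 additive calls, 518 to 785 of 1 sign, 1 to 4 in all populations, 92 to 177 in the interaction, 59 to 73 list members and a Prdm16 effect of -0.39 to -0.27.

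Genes with the same direction in the left-out population made 83.1% in PAX6+ cells with the block, and 85% in PAX6+, 87% in TBR2+ and 80.5% in PAX6-TBR2- cells with no filter. Leaving out 1 library gave 88.9 to 93.3%, 88.1 to 93.3% and 79 to 86.5%. No called gene named in the text changed sign under an alternative that could test it, while 2 of the 788 did with the length and GC trend removed. Depth limits genes with few counts, such as Vit with 2 counts over the KO PAX6-TBR2- libraries.

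Calls of single genes beside those in the text were also lost in part of the settings. Without the PAX6+ libraries they were Tnfrsf13b, Ddhd1, Prokr2, Syn2, Pbx3, Gfra1, Fzd7, Mfge8, Insm1, Syt1, Tubb3, Mdga1, Fezf2, Lhx2, Pdzrn3, Filip1, Rnd3, Dscaml1, Sdk2, Fzd8, Top2a, Ndufa4, Rps3, Rpl8, Fosl2, Flrt3, Gabra4, Pcdh17, Pcdh8, Sema3a, Sema6d and Vcan. Without the TBR2+ libraries they were Tnfrsf13b, Prokr2, Pbx3, Fzd7, Kif26b, Tubb3, Pou3f1, Mdga1, Sox5, Fezf2, Lhx2, C1qb, Aqp4, Pdzrn3, Rnd3, Epha7, Robo2, Dscaml1, Pcdh10, Sdk2, Top2a, Ndufa4, Rps9, Btbd17, Flrt3, Gabra4, Pcdh17, Sema3a and Slc44a5, and without the PAX6-TBR2- libraries Tnfrsf13b, Syn2, Kif26b, Lhx2, Fzd5, Top2a, Ndufa4, Rpl8, Gabra4 and Pcdh8. With the length and GC trend removed they were Ddhd1, Lhx2, C1qb, Pcdh10, Rpl8, Flrt3, Gabra4 and Pcdh17.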

Other observations

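Genes close to the Emx1 locus, which carries Cre in the KO mice, were looked at as values. Within 5 Mb of Emx1 on chromosome 6, 6 of 92 genes tested were called in the additive model (6.52%), against 34 of 543 over 20 Mb away on the same chromosome (6.26%) and 743 of 14355 on other chromosomes (5.18%). The 6 genes, named after their values were seen, shared a sign over the populations. Cyp26b1, the enzyme that degrades retinoic acid, lies 0.593 Mb from Emx1 and had effects of 5.38, 0.67 and 1.15 in PAX6+, TBR2+ and PAX6-TBR2- cells (edgeR adjusted p = 0.002518). Tgfa, a ligand of the EGF receptor, had effects of -0.74, -2.10 and -0.39 (edgeR adjusted p = 0.004534). Aak1, a kinase of clathrin-coated vesicles, had effects of 0.27, 0.26 and 0.24 (edgeR adjusted p = 0.001837). Tacr1 is described above, and Cct7 and Pcbp1 had additive effects of -0.28 and -0.22. Calls were lost without the PAX6+ libraries for Cyp26b1, Cct7 and Pcbp1, without the TBR2+ libraries for Tgfa, Cct7 and Pcbp1, with the length and GC trend removed for Aak1 and Pcbp1, and for Pcbp1 in 14 of 24 fits without 1 library (edgeR adjusted p up to 0.07838 without WT PAX6-TBR2- replicate 4). Within 5 Mb of Prdm16 on chromosome 4, 6 of 107 genes were called (5.61%).

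Of the 788 genes, 720 were protein coding (12805 tested), 22 antisense (621 tested) and 13 long intergenic RNAs (356 tested). Calls moved with transcript length: among the 2980 genes with the shortest transcripts 26 were higher and 116 lower, and among the 2978 with the longest 174 were higher and 51 lower. GC content had medians of 47.7% in higher, 52.97% in lower and 49.3% in all genes. The part of length and GC content in the calls was tested only by the alternative that removes their trend.

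Of the 5 sex-linked genes tested, in which KO replicate 4 stood apart, 0 were called in edgeR, DESeq2 or limma-voom and 0 had an unadjusted edgeR p under 0.05.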
